A study of Homo sapiens with 2 samples.

Results

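Metallothioneins are small, cysteine-rich proteins that bind zinc and copper, and MTF1 is the zinc-sensing transcription factor that drives their genes. The 8 symbols MT1E, MT1F, MT1G, MT1H, MT1M, MT1X, MT2A and MTF1 were taken by name from the 36601 genes listed in both matrices. They were followed in 2 single-cell RNA-Seq libraries, 1 per line, made with 10x Genomics 3′ chemistry. LNCaP_C4-2B is a castration-resistant strain derived from LNCaP, and LNCaP_FGC is the parental human prostate carcinoma line, which was not selected as a clone. Both lines grew at steady state in RPMI1640 with 10% FBS and 1% Pen/Strep and received no other treatment, and both carry the same tissue label, prostate. Each library had 1850 cells. With 1 library per line there is no replicate and no test, the batch labels also differ, and strain and batch cannot be told apart.

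Zinc in a cell is handled by importers, by exporters and by metallothioneins, which hold it and release it. When free zinc or cadmium rises, MTF1 enters the nucleus and binds metal response elements in the promoters of metallothionein genes and of SLC30A1, which exports zinc. Prostate luminal epithelium is known for its high zinc content, and several metallothionein genes respond also to oxidative stress, hypoxia and glucocorticoids.

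The human metallothionein genes lie in 1 cluster on chromosome 16 (GRCh38). MT2A spans 56608584 to 56609497, MT1E 56625475 to 56627112, MT1M 56632659 to 56633981, MT1F 56657731 to 56660698, MT1G 56666730 to 56668065, MT1H 56669814 to 56671129 and MT1X 56682470 to 56684196, all protein-coding, with MT1G alone among these on the minus strand. MTF1 lies on chromosome 1, from 37809574 to 37859592 on the minus strand. Promoter sequences of 4 members were found in RefSeq (GRCh38.p14), those of MT2A, MT1X, MT1H and MTF1. The 250 bases before the start are shown for the metallothionein genes among them, since these hold the letters that MTF1 is known to bind. Capitals mark each match to the core of the metal response element, searched as TGCACNC and TGCGCNC on both strands. The 2 forms differ at 1 base and cannot match at the same place on 1 strand.
MT2A (chr16:56608334-56608583, plus strand): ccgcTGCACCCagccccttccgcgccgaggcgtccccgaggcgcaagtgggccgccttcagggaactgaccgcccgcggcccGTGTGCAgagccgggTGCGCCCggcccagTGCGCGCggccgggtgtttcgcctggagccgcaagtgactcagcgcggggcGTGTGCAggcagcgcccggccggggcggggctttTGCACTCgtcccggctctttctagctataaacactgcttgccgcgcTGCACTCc
MT1X (chr16:56682220-56682469, plus strand): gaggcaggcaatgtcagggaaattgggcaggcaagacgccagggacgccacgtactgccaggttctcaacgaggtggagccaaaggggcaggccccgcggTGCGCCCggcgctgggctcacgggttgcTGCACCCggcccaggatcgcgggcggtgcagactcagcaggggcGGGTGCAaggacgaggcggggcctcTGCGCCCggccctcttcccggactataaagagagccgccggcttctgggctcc
MT1H (chr16:56669564-56669813, plus strand): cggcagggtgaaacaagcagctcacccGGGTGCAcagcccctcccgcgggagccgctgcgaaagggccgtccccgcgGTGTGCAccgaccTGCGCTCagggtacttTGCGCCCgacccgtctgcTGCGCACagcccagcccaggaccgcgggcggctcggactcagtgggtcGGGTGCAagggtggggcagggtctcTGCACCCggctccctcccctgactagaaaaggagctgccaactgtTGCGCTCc

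The MT2A window held 7 matches, MT1X 4 and MT1H 8, and MTF1 held 0. At least 1 match stood in 24.8% of the 35116 promoters in the table over the same 250 bases, at least 4 in 0.370% and at least 7 in 0.0313%. The number of matches did not follow the levels given next, since MT1H had the most matches of these and 1 UMI in all. A match is a description of the letters and not a bound site.

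LNCaP_C4-2B had 35149989 UMIs and LNCaP_FGC 35150013, so that 1 UMI equals 0.0284 CPM (UMIs per 1000000 of a library) in each. Cells had a median of 17566.5 UMIs and 4133 genes in LNCaP_C4-2B, against 18292 UMIs and 4909.5 genes in LNCaP_FGC. Mitochondrial transcripts took 8.35% of UMIs in LNCaP_C4-2B and 6.27% in LNCaP_FGC, and no cell barcode was shared. The 9 luminal prostate markers were detected in both libraries, while markers of other cell types summed to low levels. These were 0.626 and 0.939 CPM for 4 basal genes, 0.910 and 5.49 CPM for 5 fibroblast genes, 2.11 and 1.42 CPM for 5 immune genes and 1.62 and 3.56 CPM for 6 endothelial and erythroid genes in LNCaP_C4-2B and LNCaP_FGC. TP63, DCN, PTPRC and CDH5 were at 0 in both. Their part in the results was not tested.

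The first comparison asks which metallothionein genes LNCaP_C4-2B had lost and which it had kept. MT1G was all but absent from LNCaP_C4-2B, whereas MT2A, MT1X and MT1F, genes of the same cluster on both sides of MT1G, were present there. MTF1 was kept too, at a lower level. Counting 3′ ends gives 1 tag per molecule with no scaling by length, so CPM is set side by side between genes. Such comparisons remain uncertain where genes share sequence, as given below.

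MT2A, the most abundant member, had 18885 UMIs (537 CPM) in LNCaP_C4-2B and 13694 UMIs (390 CPM) in LNCaP_FGC, a ratio of 1.38 (95% interval 1.35 to 1.41). MT1X had 6620 UMIs (188 CPM) in LNCaP_C4-2B and 9212 UMIs (262 CPM) in LNCaP_FGC, a ratio of 0.719 (0.696 to 0.742). MT1G had 1 UMI (0.0284 CPM) in LNCaP_C4-2B and 5560 UMIs (158 CPM) in LNCaP_FGC, a 5560-fold lower level with a counting interval of 997 to 219647. MT2A thus lay higher and MT1X lower in LNCaP_C4-2B on the CPM scale, and for MT1G the libraries held almost nothing in common. MT1F had 324 UMIs (9.22 CPM) in LNCaP_C4-2B and 281 UMIs (7.99 CPM) in LNCaP_FGC, a ratio of 1.15 whose interval (0.980 to 1.36) holds equality. MTF1 had 546 UMIs (15.5 CPM) in LNCaP_C4-2B and 1142 UMIs (32.5 CPM) in LNCaP_FGC, 2.09-fold lower (1.89 to 2.32). The order of levels was MT2A, MT1X, MTF1, MT1F and MT1G in LNCaP_C4-2B, and MT2A, MT1X, MT1G, MTF1 and MT1F in LNCaP_FGC, with no overlap of the counting intervals between neighbours in either order. These intervals cover counting error only, not the spread between cultures.

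**Figure D1:**
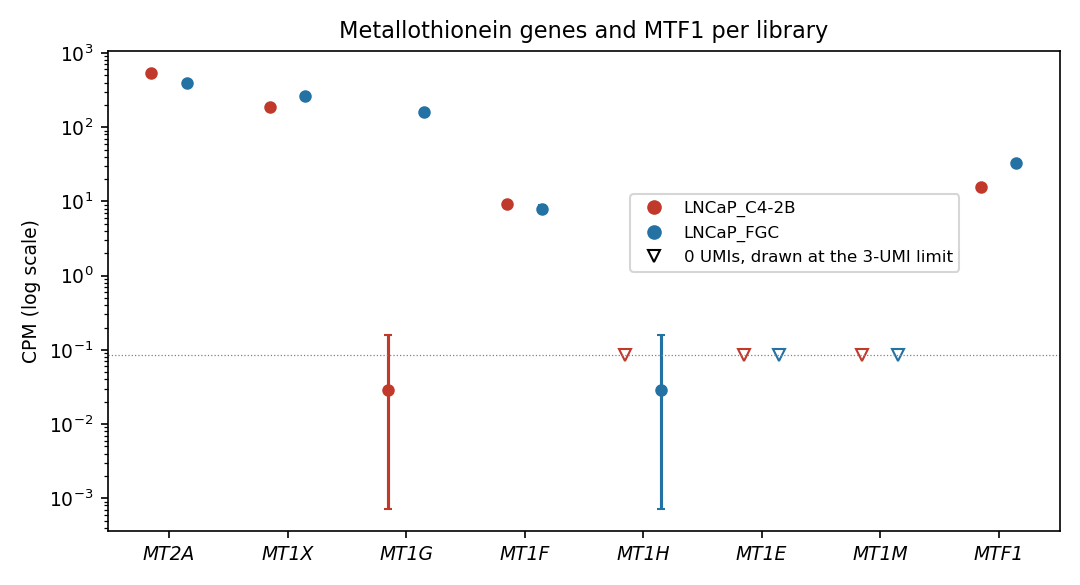
Level of each gene in CPM on a log scale, LNCaP_C4-2B in red left of LNCaP_FGC in blue, with exact 95% Poisson intervals; open triangles mark 0 UMIs and stand at 0.0853 CPM, the level of 3 UMIs. MT1G stands at 0.0284 CPM in LNCaP_C4-2B and 158 CPM in LNCaP_FGC, while for MT2A, MT1X, MT1F and MTF1 the libraries stand at most 2.09-fold apart.

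Most genes had a lower CPM in LNCaP_C4-2B, and the median of 17897 genes with at least 10 UMIs lay at a log2 ratio of −0.49, which the other scalings of the closing section take out. A gene was called higher or lower at 1.5-fold or more from that median. Of the 5 members with at least 10 UMIs, 1 was lower (MT1G), against 26.4% of all genes, and 2 were higher (MT2A and MT1F), against 26% of all genes. The other members were within that range. On the log2 scale MT2A lay 0.95 and MT1F 0.69 above that median. The counting interval of MT1F spans the 1.5-fold limit, so its call is not settled by its counts. MT1X lay 0.01 above it, and MTF1 lay at −0.58, just inside the limit. The median log2 ratio of the 5 members was −0.48, beside −0.49 for all genes.

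A gene was counted as lost with at least 100 UMIs in LNCaP_FGC and at most 3 in LNCaP_C4-2B. That held for 1 of 5 members, MT1G, against 0.362% of all genes (42 of 11589), and the other 4 were kept. The MT1G ratio was the 15th lowest of those 11589 genes.

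The make-up of the metallothionein pool differed accordingly. All 7 metallothionein members together had 25830 UMIs (735 CPM) in LNCaP_C4-2B and 28748 UMIs (818 CPM) in LNCaP_FGC. MT2A made up 73.1% of that sum in LNCaP_C4-2B and 47.6% in LNCaP_FGC, and MT1X 25.6% and 32.0%. MT1G made up 0.00387% in LNCaP_C4-2B and 19.3% in LNCaP_FGC.

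The remaining members had at most 1 UMI in a library. MT1H, the gene next to MT1G, had 0 UMIs in LNCaP_C4-2B and 1 UMI in LNCaP_FGC. MT1E and MT1M had 0 UMIs in both. Where a library had none, 0 of 1850 cells allows a share of up to 0.162% of cells with a UMI. Metallothionein transcripts resemble each other, and Cell Ranger by default leaves out reads that map to several genes, so these levels are uncertain where sequence is shared. Windows of 90 bases over the last 400 bases of each transcript (GENCODE release 44) were therefore searched for in all other genes. For MT1G, 7 of 311 windows (2.25%) occurred also in MT1X. For MT1X, 80 of 311 windows (25.7%) occurred in MT1G or in an unnamed gene, and for MT1H 20 of 308 (6.49%) in MT1HL1. MT2A, MT1F, MT1E, MT1M and MTF1 had 0 such windows. The window length was a choice made here, and shorter windows would be shared by more genes. The longest exact run shared with another metallothionein transcript was 79 bases for MT1E, 71 for MT1M, 68 for MT2A and 64 for MT1F. At 90 bases most of the MT1G end is thus its own.

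Among other metallothionein genes in the files, MT3, best known from brain, had 171 UMIs in LNCaP_C4-2B and 22 UMIs in LNCaP_FGC, a 7.77-fold higher level (4.97 to 12.7) at 4.86 and 0.626 CPM. MT1A had 3 and 0 UMIs, and MT1B, MT4 and MT1HL1 had 0 in both. MT3 was named after its values were seen.

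The second comparison concerns cells rather than libraries. In LNCaP_C4-2B, MT2A and MT1X were concentrated in a small set of cells with very high counts, above a low level in the rest. In LNCaP_FGC the same genes were spread more evenly, and so was MT1G. The 93 cells with the most UMIs of a gene (5% of cells) held 62.7% of all MT2A UMIs in LNCaP_C4-2B and 38.0% in LNCaP_FGC, and 66.3% and 31.7% of MT1X UMIs. The same share for MT1G in LNCaP_FGC was 38.7%. Over all genes of at least 20 CPM the median share was 20.9% in LNCaP_C4-2B and 20.3% in LNCaP_FGC. In LNCaP_C4-2B only 1 of 5382 genes ranked above MT1X by this share, and MT2A was next after it, while in LNCaP_FGC MT1G was 45th, MT2A 49th and MT1X 140th of 6448.

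MT2A had a median of 3 UMIs per cell and a highest count of 527 in LNCaP_C4-2B, against a median of 4 and a highest count of 300 in LNCaP_FGC. MT1X had a median of 1 and a highest count of 196 in LNCaP_C4-2B, against 3 and 132 in LNCaP_FGC. The typical LNCaP_C4-2B cell therefore held less of both genes than the typical LNCaP_FGC cell, and the highest cells held more. At least 100 MT2A UMIs were seen in 41 LNCaP_C4-2B cells and 13 LNCaP_FGC cells, and at least 100 MT1X UMIs in 13 and 3 cells. MT1G reached 105 UMIs in 1 LNCaP_FGC cell, and the only LNCaP_C4-2B cell with any had 1. In the extreme cells, metallothionein genes took up to 6.12% of a cell's UMIs in LNCaP_C4-2B and up to 2.32% in LNCaP_FGC.

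**Figure D2:**
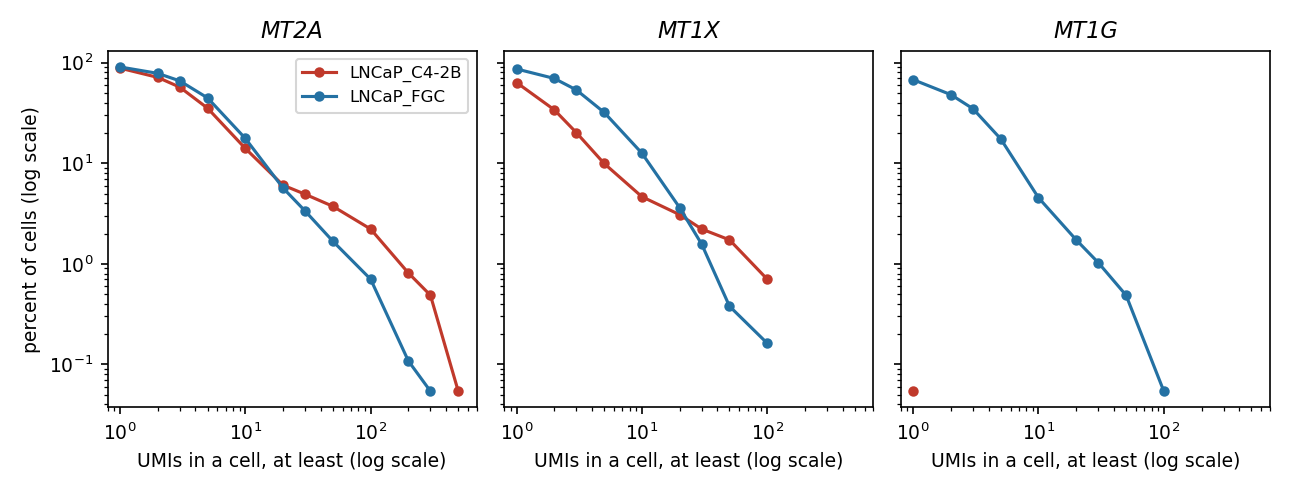
Percent of cells with at least a given number of UMIs of MT2A, MT1X and MT1G, both axes on a log scale, LNCaP_C4-2B in red and LNCaP_FGC in blue, all 1850 cells per library as deposited. For MT2A and MT1X the lines cross, LNCaP_C4-2B having fewer cells with a few UMIs and more cells with at least 30, and MT1G has a single point of 1 cell in LNCaP_C4-2B.

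The higher CPM of MT2A in LNCaP_C4-2B rested on those cells. Without the 5% of cells highest in MT2A in each library, MT2A stood at 211 CPM in LNCaP_C4-2B and 256 CPM in LNCaP_FGC. The log2 ratio turned to −0.28, against 0.46 over all cells. It stayed above the −0.49 of the median gene, which was taken over all cells. MT1X stood at 66.7 and 190 CPM without its highest cells, a log2 ratio of −1.51 in place of −0.48. MT1F and MTF1 kept their directions, at 0.34 and −1.21.

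The share of cells with at least 1 UMI set the genes apart in the same way. As deposited, MT2A was seen in 88.3% of cells in LNCaP_C4-2B and 90.7% in LNCaP_FGC, MT1X in 63.5% and 86.6%, and MT1G in 0.0541% (0.00137 to 0.301) and 67.8% (65.7 to 70.0). With each cell thinned to 11901 UMIs, which left out 185 LNCaP_C4-2B and 227 LNCaP_FGC cells, the shares for MT2A were 80.3% in LNCaP_C4-2B and 85.1% in LNCaP_FGC, for MT1X 51.6% and 77.2%, and for MT1G 0.0601% and 59.6%. MT1F was seen in 8.89% of thinned cells in LNCaP_C4-2B and 7.83% in LNCaP_FGC, and MTF1 in 17.3% and 29.9%. The MT2A share runs against its CPM, so no order between the lines is read from it. Each library holds 1 line, so the share that free RNA would give in cells without the gene was not measured.

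If the UMIs of a gene were spread over cells by depth alone, MT1X would be found in 95.3% of cells in LNCaP_C4-2B and 98.3% in LNCaP_FGC. The observed shares were far below that in LNCaP_C4-2B. For MTF1 the depth alone gives 25.2% of cells in LNCaP_C4-2B and 45.0% in LNCaP_FGC, and 25.2% and 42.3% were seen. Overdispersion, the variance beyond counting noise relative to the squared mean, was 11.8 for MT2A and 14.6 for MT1X in LNCaP_C4-2B, and 3.93 and 2.24 in LNCaP_FGC, where MT1G had 4.16. It was 3.16 and 2.99 for MT1F, and −0.00536 and 0.190 for MTF1, in LNCaP_C4-2B and LNCaP_FGC. The median of all genes of at least 20 CPM was 0.0871 in LNCaP_C4-2B and 0.102 in LNCaP_FGC, where MTF1 ranked 1455th of 6448. MTF1 thus lay far below the metallothionein genes, though above the median gene in LNCaP_FGC.

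The third comparison asks whether the genes were high in the same cells. MT2A and MT1X were, in both lines, and in LNCaP_FGC MT1G joined them, each in part through the highest cells. In 1665 thinned LNCaP_C4-2B cells the Pearson correlation of MT2A with MT1X, on log(1 + UMIs), was 0.52, and in 1623 LNCaP_FGC cells it was 0.48. In LNCaP_FGC MT1G correlated at 0.40 with MT2A and 0.36 with MT1X. The rare MT1F correlated at 0.22 in LNCaP_C4-2B and 0.17 in LNCaP_FGC with MT2A. These are descriptions over cells that share a library, its free RNA and a depth. The LNCaP_C4-2B value of MT2A with MT1X rested on the highest cells. Without the 5% of cells with the most metallothionein UMIs it was 0.15, against 0.31 in LNCaP_FGC, and the rank correlations were 0.23 and 0.40. For MT1G in LNCaP_FGC the value without those cells was 0.20 with MT2A and 0.19 with MT1X. Its rank correlations were 0.28 and 0.27. Of the 84 thinned LNCaP_C4-2B cells highest in MT2A, 52 (61.9%) were also among the 84 highest in MT1X, and in LNCaP_FGC 41 of 82 (50%). In LNCaP_FGC 40 of 82 cells highest in MT2A were among those highest in MT1G, and 30 of 82 cells highest in MT1X were.

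Thinned cells grouped by their MT2A count show the same in steps. Among cells with 0 MT2A UMIs, MT1X averaged 0.595 UMIs in 328 LNCaP_C4-2B cells and 1.55 in 242 LNCaP_FGC cells. Among cells with 3 to 5 MT2A UMIs it averaged 0.960 and 2.67, and with 11 to 30 it averaged 3.76 and 10.3. Above 30 MT2A UMIs, MT1X averaged 39.4 (37.6 to 41.3) in 44 LNCaP_C4-2B cells and 22.0 (20.4 to 23.7) in 32 LNCaP_FGC cells. Up to 30 MT2A UMIs a LNCaP_C4-2B cell thus carried less MT1X than a LNCaP_FGC cell. The last group has no upper end, and MT2A was not equal within it. In the 84 LNCaP_C4-2B and 82 LNCaP_FGC cells with most metallothionein UMIs, MT2A stood at 5647 and 2836 CPM and MT1X at 1953 and 1581 CPM. Of the 93 cells per library with the largest metallothionein share, thinning left out 25 in LNCaP_C4-2B and 11 in LNCaP_FGC. The highest cells of the lines are thus not covered equally. The MT1X counts of cells in 1 group are not equal, so these intervals cover counting error alone.

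MT1G had 1 UMI in all of LNCaP_C4-2B, so it could not follow MT2A there, and these groups are no separate check. In the 44 cells above 30 MT2A UMIs MT1G had 0 UMIs, which allows up to 0.0682 UMIs per cell. The 32 such LNCaP_FGC cells averaged 19.7 UMIs and 96.9% of them had at least 1. MT1F, the member next to MT1G on the MT2A side, averaged 0.773 UMIs in these cells of LNCaP_C4-2B and 0.688 in those of LNCaP_FGC, against 0.0854 and 0.0579 in the cells with 0 MT2A UMIs. The genes on both sides of MT1G were thus high in the LNCaP_C4-2B cells with most MT2A. That MT1G was not seen there follows from its library total.

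**Figure D3:**
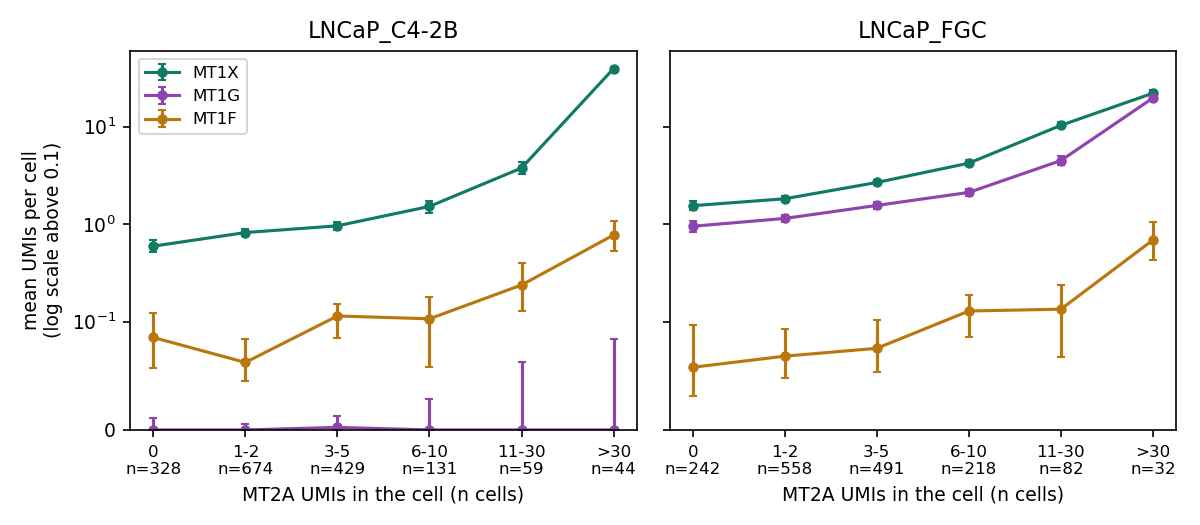
Mean UMIs per cell of MT1X, MT1G and MT1F in cells grouped by their MT2A UMIs, LNCaP_C4-2B left and LNCaP_FGC right, each cell thinned to 11901 UMIs; the vertical axis is logarithmic above 0.1, and bars are 95% counting intervals. MT1X climbs with MT2A in both lines, MT1F is highest in the last group of both, and MT1G climbs from 0.950 to 19.7 in LNCaP_FGC only, staying at 0 or 1 UMI per group in LNCaP_C4-2B.

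MTF1 was too sparse to show whether it moved with its targets over cells. It was seen in 17.3% of thinned LNCaP_C4-2B cells and 29.9% of LNCaP_FGC cells, with overdispersion of −0.00536 and 0.190. Its correlations with MT2A, MT1X, MT1G and MT1F lay between −0.04 and 0.02 in both libraries. Counts with so little spread beyond counting noise can show only weak correlations, so no conclusion is drawn from these. In the 84 LNCaP_C4-2B cells highest in metallothionein UMIs MTF1 had 9 UMIs, against 308 UMIs in the 1581 other cells, a CPM ratio of 0.550 (0.249 to 1.06). In the 82 such LNCaP_FGC cells it had 29 UMIs, against 581 UMIs in the 1541 other cells, a ratio of 0.938 (0.623 to 1.36). Both intervals hold equality. MTF1 is known to be switched on by zinc as a protein, and neither the protein nor its location was measured.

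Clusters were made within each library without the members. In LNCaP_C4-2B cluster 3, with 217 cells, MT2A stood at 2677 CPM and MT1X at 1024 CPM, while the other 3 clusters had 232 to 363 CPM of MT2A and 88.4 to 110 CPM of MT1X. Of the 93 cells with the largest MT2A share of UMIs, 58 lay in this cluster, which held 48.6% of metallothionein UMIs in 11.7% of cells. Its median cell had 4 metallothionein UMIs, as had the median cell of the other clusters, so the high level came from part of its cells. The 10 genes leading the cluster by ratio were NDUFA4L2, KISS1R, PLOD2, ALDOC, ERO1A, ORAI3, ANKRD37, NUPR1, AKAP12 and GDF15, and it is left unnamed. Its cells were shallower, with a median of 13821 UMIs against 17891 in the others. Of the 93 LNCaP_C4-2B cells with the largest metallothionein share, 25 had under 11901 UMIs, as did 185 of all 1850, and the part of depth in the result was not tested.

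LNCaP_FGC clusters differed less. Cluster 4, with 258 cells, was the highest at 690 CPM of MT2A, 403 CPM of MT1X and 272 CPM of MT1G, and the other 5 clusters had 279 to 416 CPM of MT2A. Cluster 0, with 443 cells, had the lowest MT1G, 81.9 CPM (75.8 to 88.4), beside the second highest MT2A and MT1X, 416 and 314 CPM. MT1G and MT2A thus did not have the same order over LNCaP_FGC clusters. The highest cluster exceeded the lowest by 11.4-fold in LNCaP_C4-2B and 2.24-fold in LNCaP_FGC for the metallothionein sum.

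**Figure D4:**
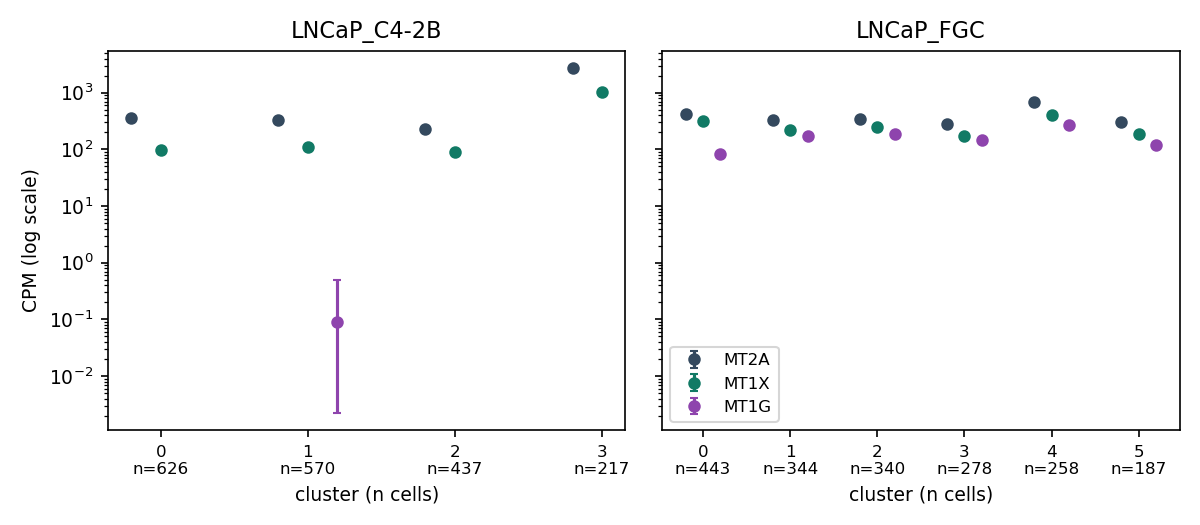
CPM of MT2A, MT1X and MT1G on a log scale in each cluster, LNCaP_C4-2B left and LNCaP_FGC right, with 95% counting intervals; clusters were made in each library separately and share only their numbers, and MT1G is not drawn in the 3 LNCaP_C4-2B clusters where it had 0 UMIs. LNCaP_C4-2B cluster 3 stands at 2677 CPM of MT2A, and no LNCaP_FGC cluster lies above 690 CPM.

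By cell cycle phase, MT2A in LNCaP_C4-2B stood at 789 CPM in G1, 228 CPM in S and 426 CPM in G2M. Of its 93 cells with the largest MT2A share, 67 were called G1, and without those 93 cells the order was 169, 208 and 278 CPM. In LNCaP_FGC MT2A stood at 294 CPM in G1, 469 CPM in S and 451 CPM in G2M, and at 192, 297 and 315 CPM without its 93 highest cells. The lower G1 level outside the highest cells was thus found in both lines. MTF1 lay between 13.2 and 17.0 CPM over phases in LNCaP_C4-2B and between 30.1 and 33.6 CPM in LNCaP_FGC.

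ETV1, an ETS transcription factor gene, divides LNCaP_FGC cells, and MT1G differed with it. Of the 1623 thinned cells, those with 1 ETV1 UMI were left out. The 615 cells with 0 ETV1 UMIs had 102 CPM of MT1G, against 198 CPM in the 745 cells with at least 2, a ratio of 0.516 (0.473 to 0.563). For MT2A and MT1X the ratios were 0.880 (0.836 to 0.926) and 0.940 (0.885 to 0.999), while the shares of cells with a UMI ran the other way (89.6% against 80.8% for MT2A and 80.3% against 73.6% for MT1X), so no order is read for these genes. The ratio was 0.629 for MT1F (0.420 to 0.928). For MTF1 it was 0.877, and its interval (0.734 to 1.05) holds equality.

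Some of the LNCaP_C4-2B cells richest in metallothionein transcripts were also high in other genes. SLC30A1, the zinc exporter and MTF1 target, stood at 17.0 CPM in the 84 cells with most metallothionein UMIs and 3.45 CPM in the others, a ratio of 4.92 (2.70 to 8.50). HMOX1, which encodes the heme-degrading enzyme heme oxygenase 1, stood at 64.0 and 5.58 CPM, a ratio of 11.5 (8.27 to 15.8). In the 44 cells above 30 MT2A UMIs its 56 UMIs came from 22.7% of cells, and 1 cell held 17. MT3 had a ratio of 9.86 (6.27 to 15.3). In those 44 cells SLC30A1 was seen in 25% and MT3 in 22.7%, so each ratio came from a minority of cells. For other MTF1 targets the intervals in the 84 cells held equality, with ratios of 0.785 for SLC39A10 (0.537 to 1.11) and 1.23 for GCLC (0.817 to 1.80). SLC40A1 had 1.08 (0.125 to 4.19). Among genes that NRF2 induces under oxidative stress, as it does HMOX1, NQO1 had 0.931 (0.774 to 1.11) and GCLM 1.07 (0.777 to 1.45). SLC7A11 had 1.16 (0.939 to 1.41), SRXN1 1.58 (0.999 to 2.41) and TXN 0.776 (0.691 to 0.868). FTH1 had 1.62 (1.57 to 1.66) and FTL 1.36 (1.27 to 1.46). Of glucocorticoid-induced genes at 20 CPM or more, TSC22D3 had 2.08 (1.74 to 2.48), KLF9 1.23 (0.827 to 1.77) and FKBP5 0.685 (0.578 to 0.808). In LNCaP_FGC the ratio was 1.08 (0.531 to 1.98) for SLC30A1 and 0.533 (0.143 to 1.40) for HMOX1, both on few UMIs in the highest cells (11 and 4). The difference between the lines in these ratios was not tested, and SLC30A1, HMOX1 and MT3 were named after their values were seen. The highest cells had a median of 7.94% mitochondrial UMIs in LNCaP_C4-2B, against 8.30% in the other cells, and 5.48% against 6.13% in LNCaP_FGC.

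Over all genes of at least 50 CPM, the correlation with the metallothionein sum over cells was highest for FTH1 (0.28), the ferritin heavy chain, in LNCaP_C4-2B. NUPR1 (0.26), a stress-induced nuclear protein gene, ERO1A (0.20), ALDOC (0.19), GAPDH (0.17), MKNK2 (0.16), P4HA1 (0.16), EIF1 (0.16), VEGFA (0.15) and HMGB2 (0.14) followed among 2648 genes. The lowest were MT-CO3 (−0.21), MT-ATP6 (−0.20), PMEPA1 (−0.18), RPL22L1 (−0.18) and SORD (−0.16), of which the first and second are mitochondrially encoded.

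In LNCaP_FGC the list was another one. NUP93 (0.38), a nuclear pore gene, led 3377 genes, followed by TUBA1B (0.29), PTMA (0.25), TCP1 (0.25), NPM1 (0.23), HNRNPM (0.23), HSP90AA1 (0.20), HMGB1 (0.19), PTTG1 (0.19) and STMN1 (0.19). The lowest were MT-ND1 (−0.24), MT-CYB (−0.23), MT-CO2 (−0.23), DHRS7 (−0.22) and MT-ND3 (−0.21), all but DHRS7 mitochondrially encoded. The median gene had a correlation of −0.01 in LNCaP_C4-2B and 0.01 in LNCaP_FGC. FTH1, first in LNCaP_C4-2B, had −0.11 in LNCaP_FGC.

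Genes that handle zinc and copper showed no single direction between the lines. Of 5 MTF1 targets outside the metallothioneins, 2 were lower in LNCaP_C4-2B, 1 was higher and 2 lay within 1.5-fold of the median gene, beside 26.4% lower and 26% higher among all genes. GCLC, which makes the first enzyme of glutathione synthesis, had 24.3 CPM in LNCaP_C4-2B and 15.6 CPM in LNCaP_FGC (ratio 1.56, 1.40 to 1.74). SLC39A10, a zinc importer known from mouse to be repressed by MTF1, had 40.4 and 63.1 CPM (0.640, 0.599 to 0.685). SLC30A1 was one of the lower genes, with 4.27 CPM in LNCaP_C4-2B and 9.73 CPM in LNCaP_FGC (0.439, 0.360 to 0.533), although it was high in the LNCaP_C4-2B cells rich in metallothionein.

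Of 20 zinc transporters, 9 were lower and 5 higher. The counts by family, a split made after the values were seen, are a description, and the difference between families was not tested. Of 9 SLC30 genes, most of which move zinc out of the cytosol, 7 were lower (SLC30A10 on 0 and 21 UMIs) and 1 was higher (SLC30A3 on 9 and 6 UMIs), beside 26.4% lower and 26% higher among all genes. Of 11 SLC39 genes, which move it in, 2 were lower and 4 were higher. SLC30A5, which loads zinc into the secretory pathway, had 20.3 CPM in LNCaP_C4-2B and 50.1 CPM in LNCaP_FGC (0.406, 0.371 to 0.443), and SLC39A9 had 17.1 and 46.7 CPM (0.366, 0.333 to 0.403). SLC39A8, an importer of zinc and manganese, had 57.0 CPM in LNCaP_C4-2B and 26.2 CPM in LNCaP_FGC (2.17, 2.01 to 2.35). SLC39A3 had 53.6 and 42.6 CPM (1.26, 1.18 to 1.35).

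Of 8 copper handling genes, 0 were lower, against 26.4% of all genes, and 1 was higher, against 26%. CCS, the copper chaperone for superoxide dismutase, had 56.8 CPM in LNCaP_C4-2B and 26.5 CPM in LNCaP_FGC (2.15, 1.98 to 2.32), and ATOX1, the chaperone that serves the copper pumps, had a ratio of 0.808. ATP7A, a copper pump, had a ratio of 0.484 and SLC31A1, the copper importer, 0.534, both within 1.5-fold of the median gene.

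Of 12 NRF2 target genes, which answer oxidative stress, 1 was lower, against 26.4% of all genes, and 6 were higher, against 26%. NQO1 had 135 CPM in LNCaP_C4-2B and 71.2 CPM in LNCaP_FGC (1.90, 1.81 to 1.99), and SLC7A11, the cystine importer, had 90.6 and 51.0 CPM (1.78, 1.68 to 1.88). SRXN1, a sulfiredoxin gene, had 15.3 and 46.2 CPM (0.331, 0.299 to 0.365). Of 6 genes induced by the glucocorticoid receptor, 1 was lower, against 26.4% of all genes, and 3 were higher, against 26%. TSC22D3 had the highest ratio (2.54, 2.36 to 2.74), FKBP5 had 1.27 and KLF9 0.609. The receptor gene NR3C1 itself, named after its values were seen, had 1 UMI in LNCaP_C4-2B and 8 UMIs in LNCaP_FGC.

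Neither MT1F nor MT1X, the nearest expressed members on the sides of MT1G, was lost. Within 1 Mb of the cluster, 19 other genes could be compared, of which 5 were lower, 5 were higher and 9 lay within 1.5-fold of the median gene, with a median 0.13 above it on the log2 scale. These shares are near those of all genes, 26.4% lower and 26% higher. BBS2, the gene before the cluster, with its start at −85.4 kb from that of MT1G, had 16.1 CPM in LNCaP_C4-2B and 14.6 CPM in LNCaP_FGC (1.10, 0.975 to 1.24). NUP93, the next gene beyond MT1X and 62.1 kb from MT1G, had 37.4 CPM in LNCaP_C4-2B and 184 CPM in LNCaP_FGC, a 4.92-fold lower level (4.63 to 5.22).

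NUP93 was also the gene most correlated with the metallothionein sum over LNCaP_FGC cells, at 0.38 with MT1X, 0.27 with MT2A and 0.23 with MT1G. In LNCaP_C4-2B the values were 0.02 with MT1X and 0.06 with MT2A. It was seen in 47.7% of LNCaP_C4-2B cells and 83.8% of LNCaP_FGC cells, with up to 6 and 31 UMIs in a cell. In the 82 LNCaP_FGC cells richest in metallothionein it stood at 489 CPM, against 171 CPM in the others (2.86, 2.59 to 3.15). In LNCaP_C4-2B it stood at 36.0 and 36.4 CPM (0.991, 0.688 to 1.39). BBS2 on the other side had ratios of 0.835 (0.439 to 1.45) and 1.16 (0.651 to 1.91) in LNCaP_C4-2B and LNCaP_FGC.

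**Figure D5:**
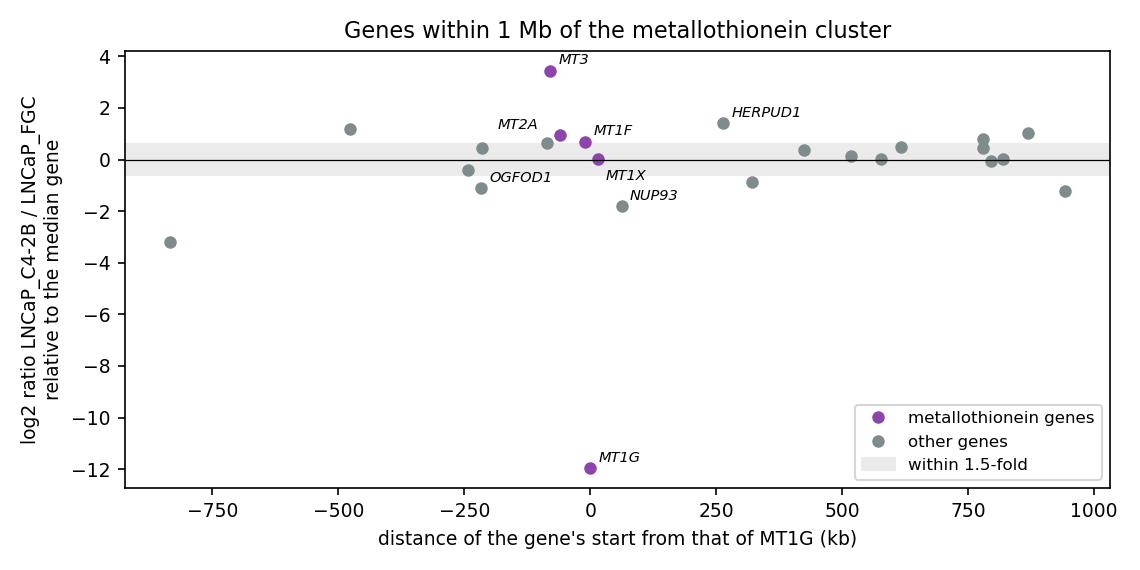
Log2 ratio of LNCaP_C4-2B over LNCaP_FGC relative to the median gene, against the distance of each gene's start from that of MT1G in kb, for genes with at least 10 UMIs within 1 Mb of the metallothionein cluster; the grey band marks 1.5-fold. MT1G stands at −11.95 and the lowest other gene, CES1 on 1 and 13 UMIs, at −3.21, with MT1F, MT2A and MT1X at 0.69, 0.95 and 0.01 and NUP93 at −1.81.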

How the data were processed

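The submitters' processing notes name GRCh38, Cell Ranger 6.0 for counting and Seurat 5.011 for filtering. The authors removed low-quality cells and doublets by score, then drew equal numbers of cells and thinned the counts to a common mean. The deposited values are whole UMI counts per gene and cell, not scaled. The original depth is not stated in what was read. Members and lists were chosen with earlier results of these data known. Named genes were the 8 members, the 2 highest and 2 lowest ratios in each list among genes of 20 CPM or more, where a list held so many, the 10 highest and 5 lowest correlations per library, and the neighbours next to the cluster. Of these, 1 list gene is not reported here.

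UMIs were summed over cells, scaled to CPM and compared as ratios with exact conditional 95% intervals. Shares have Clopper-Pearson and levels Poisson intervals, all for counting error only. Phases (43 S and 54 G2M genes) and clusters (3000 variable genes less the members found among them, 10 components, resolution 0.5) came from Seurat 5.3.0 in R 4.3.3, and TMM factors from edgeR 4.0.16. Other steps used Python 3.11.15 with numpy and scipy. On library totals simulated with counting noise alone, 200 of 200 well-counted genes changed by more than 1.5-fold were called. The simulation held no spread between cells or cultures, so it does not measure the error of the calls made here. The number of unused sample columns was 0. Alternatives are given in the closing section.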

Additional observations from a re-analysis of the deposited data

How the results depend on the processing

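MT1G stayed at log2 ratios of −12.30 to −10.58 under each of 7 alternatives that gave a value. Under a limit of 10 UMIs the number of lost members was again 1. With 1 UMI against 5560, none of these settings could undo the loss, so they are no separate check. In G1 and G2M and without its highest cells, LNCaP_C4-2B had 0 MT1G UMIs, and no ratio was given. MTF1 had a log2 ratio below 0 under all 10 alternatives (−1.21 to −0.58), though at −0.58 from the median gene it was not called lower. On the CPM scale MT2A, at 0.46, ranged up to 1.42 within G1. It turned to −0.28 without its highest cells, −1.04 within S, −0.0804 within G2M and −0.33 without LNCaP_C4-2B cluster 3. The last alternative was chosen after seeing the data. The median gene lay at −0.49 over all cells and was not recomputed for these subsets. Only the MT2A value within S lay below it. MT1F turned to −0.58 within S. MT1X ranged from −1.82 within S to 0.29 within G1. TMM and median-of-ratios factors moved MT2A to 0.95 and 0.93, and over thinned cells it was 0.28. At 2-fold from the median gene, 0 members in place of 2 were higher. The correlation of MT2A with MT1X in LNCaP_C4-2B was 0.23 by ranks, 0.67 on unthinned counts, 0.15 without the 5% of cells with the highest sum, and 0.68, 0.22 and 0.34 within G1, S and G2M. In LNCaP_FGC it was 0.40, 0.55 and 0.31 under the first 3 and 0.55 within G2M. At resolution 0.3 the highest cluster exceeded the lowest by 10.7-fold in LNCaP_C4-2B and 1.70-fold in LNCaP_FGC. The causes were not tested. No paired analysis was possible because each line has 1 library and no test was run. With 1 UMI at 0.0284 CPM, 0 UMIs in a library allow a level of up to 0.0853 CPM, and the MT1G ratio rests on 1 UMI in LNCaP_C4-2B.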
